A study of Mus musculus with 6 samples.

Results

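The Myc family and its partners were followed through an RNA immunoprecipitation (IP) from germ cells that carry a tagged DAZL protein. Members were taken by name: every non-control array probe whose gene name was Myc, Mycn, Mycl1, Max, Mxd4, Mxi1, Mnt, Mga or Mycbp. This gave 19 probes for 9 genes, of 41174 probes on the array. A probe was tested if some group had both of its arrays well above background; 16 of these 19 were, among 21060 probes in all.

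The material was primordial germ cells made in culture from mouse embryonic stem cells of the V6.5 line, on a mixed C57BL/6 and 129SV background, after 12 days in differentiation medium. All 6 samples came from cells that carry Dazl-GFP-V5, including the controls, so cells without the tagged protein were not analysed here. Protein was crosslinked to RNA with ultraviolet light, and 2 arrays each measured what anti-GFP brought down (GFP IP), what anti-PABP1 brought down (PABP1 IP) and total RNA (input). PABP1 is the main cytoplasmic protein bound to poly(A). The design names input and PABP1 IP as the controls. Nothing in the labels says that replicates came from separate cultures, so p-values measure the spread between these samples, which may be technical.

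MYC, MYCN and MYCL are basic helix-loop-helix leucine zipper transcription factors that bind E-box DNA as dimers with MAX and promote growth and proliferation. MXI1, MXD4 and MNT compete for MAX and recruit SIN3 repressor complexes to the same sites, and MGA is a MAX partner that also has a T-box domain and acts in a Polycomb complex known to silence germ cell genes in embryonic stem cells. DAZL binds mRNAs of the germ line, mostly through their 3′ ends.

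Levels are given as the processed signal divided by the 75th percentile of all probes on the same array, which ran from 63.5 to 163 units. Values after ± are standard errors of log2 differences from limma, with 2 arrays per group, and p-values were adjusted over all 21060 probes with a threshold of 0.05. The choice of scale matters here. Centring the arrays on the median probe moved the typical probe by 0.59 (log2) in GFP IP against input, 0.18 in PABP1 IP against input and 0.41 in GFP IP against PABP1 IP. Centring on the 10 spike-in probes moved it by 0.94, 2.57 and -1.63. For that reason the distance of a probe from the median of all tested probes, which neither centring changes, is given for at least 1 comparison of each gene. Levels of different probes are not compared with each other.

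The share of spots well above background was 41.5% to 52.6% per array, and no spot was saturated. Replicate arrays correlated at 0.980 to 0.991. Both input arrays, PABP1 IP 1 and GFP IP 2 were on one slide, and PABP1 IP 2 and GFP IP 1 on another. Of the germ cell markers on the array, 8 of 9 were well above background on both input arrays and Ddx4 was on neither, while all 8 pluripotent cell markers were. Of cardiac and smooth muscle markers 7 of 9 were well above background in input, with Myh6 and Myh11 not, and their summed relative level was 78.4 to 94.3 in input, 169 to 184 in PABP1 IP and 28.6 to 38.4 in GFP IP. Myl7 (26.3 and 29.0 in input, 77.4 and 82.9 in PABP1 IP) and Tagln (27.9 and 41.7, 65.0 and 84.9) carried the PABP1 IP sum, while Tnni3 (7.95 and 8.11, 2.66 and 3.21) and Mybpc3 (1.51 and 1.89, 0.584 and 0.616) went the other way. Fibroblast markers (5 of 6 in input) summed to 64.1 to 94.2, 81.7 to 89.6 and 23.5 to 44.7. The part of muscle and fibroblast cells in the results below was not tested. All groups came from one kind of culture, so these sums compare RNA recovered and do not count cells.

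In GFP IP against input, 9 of the 16 member probes passed the test, 7 higher and 2 lower, where 53.2% of all tested probes passed (20.7% higher and 32.5% lower). At least 1 probe of Myc, Mycn, Mycl1 and Mycbp was higher and at least 1 of Mnt and Mga was lower, while no probe of Max, Mxd4 or Mxi1 passed. Of the 7, Mycbp probe 3 did not exceed the lowest level called above background in input, so its difference is not measured. The arrays of both groups did not overlap for 9 probes higher and 4 lower in GFP IP, where this held for 30.4% and 51.6% of all probes. The median member probe differed by 0.39 and the median of all tested probes by -0.38. The split of calls depended on the scale: it was 9 higher and 0 lower with the median probe as reference and 7 and 0 with the spike-ins. It was 4 and 6 after normexp background correction of the raw spot means. That correction adds an offset of 50 units to each signal, which by itself shrinks the differences of dim probes. Normexp values of dim probes therefore cannot show whether a difference is absent or reversed. Without input replicate 2, 5 probes passed.

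In PABP1 IP against input 9 probes also passed, 6 higher and 3 lower, where 54.7% of all probes did (30.7% higher and 24.0% lower). Myc, Mxd4, Mxi1 and Mycbp each had a probe that was higher, and Mnt and Mga were lower. Among these calls, Myc probe 3 was tested only through PABP1 IP, the group where it was high. No probe of Mycn, Mycl1 or Max passed. Groups did not overlap for 9 probes higher and 4 lower in PABP1 IP (43.2% and 35.2% of all probes). The median member probe differed by 0.79 against 0.13 for all probes. With the spike-ins as reference 15 probes passed, 14 higher and 1 lower, while normexp gave 3 and 3.

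In the direct comparison of GFP IP with PABP1 IP, 9 probes passed, 5 higher in GFP IP and 4 lower, where 62.8% of all probes did (24.4% higher and 38.4% lower). Mycn, Mycl1 and Mga were higher in GFP IP. Mxd4, Mxi1, Myc (by 1 of 3 probes) and Mycbp (by 1 of 3 probes) were lower, and Max and Mnt did not pass. The Myc probe called lower was tested only through PABP1 IP, the group where it was high. Groups did not overlap for 8 probes higher and 6 lower in GFP IP (31.5% and 49.7% of all probes). The median member probe differed by 0.02 and all probes by -0.46. The median probe as reference gave 7 higher and 2 lower, quantile normalization 6 and 3, and the spike-ins 1 and 10. The 3 comparisons share arrays and are not independent of one another.

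**Figure D1:**
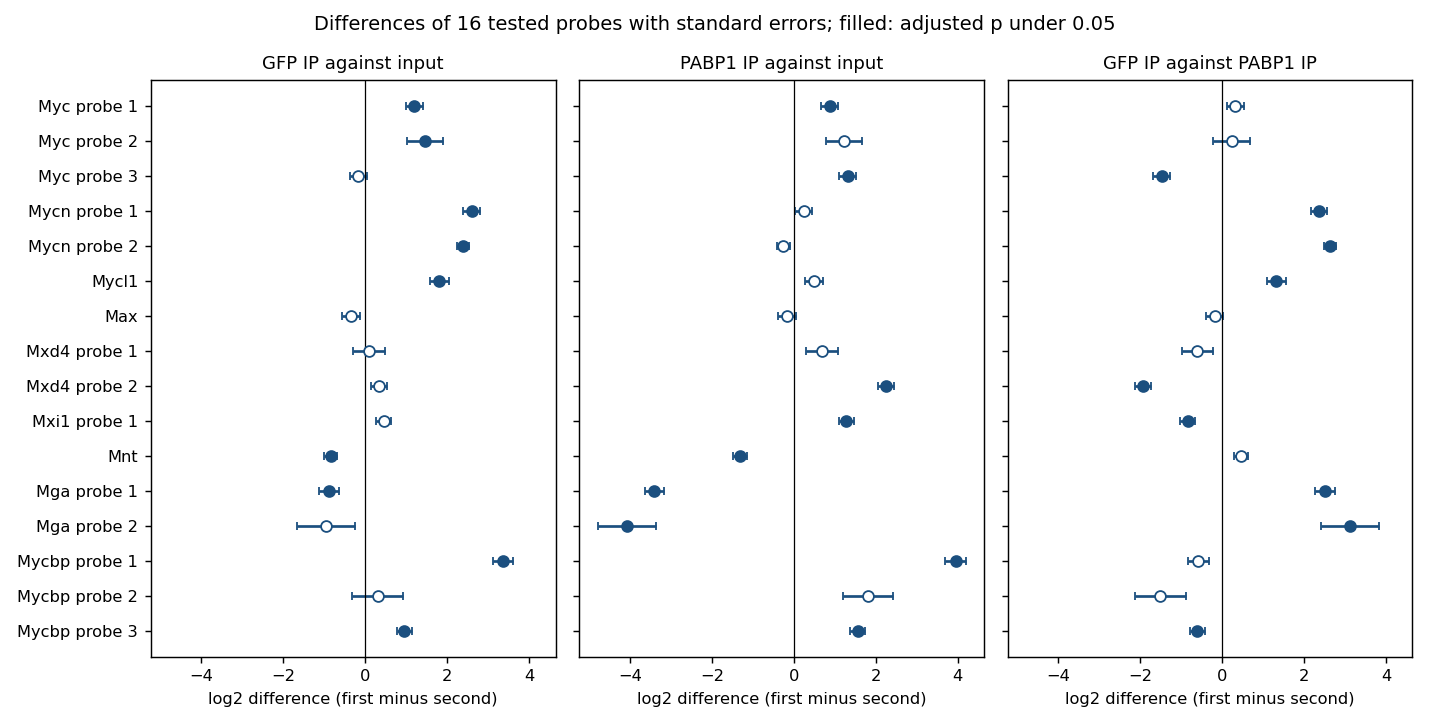
Log2 difference (first group minus second, 75th percentile scale) of each of the 16 tested probes in the 3 comparisons, with standard errors from limma over 2 arrays per group; filled points have an adjusted p under 0.05. Both Mycn probes lie between 2.36 and 2.63 in the 2 panels with GFP IP and near 0 in PABP1 IP against input, while both Mga probes lie at -3.40 and -4.07 in PABP1 IP against input.

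Mycn, which encodes the MYC protein prominent in early embryos and stem cells, was higher in GFP IP by both of its probes. The brighter probe read 4.00 and 3.78 times the 75th percentile in input, 5.30 and 3.99 in PABP1 IP, and 22.1 and 25.3 in GFP IP. The dimmer one read 0.265 and 0.266 in input, 0.229 and 0.217 in PABP1 IP, and 1.42 and 1.34 in GFP IP. On both probes the GFP IP arrays stood far above the other 4, which lay close together.

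For the brighter Mycn probe the difference between GFP IP and input was 2.60 ± 0.21 (6.08-fold, adjusted p = 0.00159), which is 2.98 above the median of all probes. For the dimmer probe it was 2.38 ± 0.15 (5.22-fold, adjusted p = 0.00147). Against PABP1 IP the differences were 2.36 ± 0.21 (5.15-fold, adjusted p = 0.000675) and 2.63 ± 0.15 (6.21-fold, adjusted p = 0.00053). With the spike-ins as reference these last values were 0.73 (adjusted p = 0.273) and 1.00 (adjusted p = 0.129) and no longer passed.

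On the 75th percentile scale neither Mycn probe passed between PABP1 IP and input. The differences were 0.24 with a 95% interval from -0.28 to 0.76 for the brighter probe and -0.25 with an interval from -0.64 to 0.14 for the dimmer one. On the spike-in scale both passed as higher, at 2.81 (adjusted p = 8.49e-06) and 2.32 (adjusted p = 0.000227).

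Mycl1, named Mycl in current annotation, encodes the third MYC protein. Its single probe read 0.282 and 0.332 in input, 0.477 and 0.388 in PABP1 IP, and 0.930 and 1.24 in GFP IP. Both GFP IP arrays were above the other 4, and both PABP1 IP arrays were a little above input. GFP IP exceeded input by 1.81 ± 0.23 (3.51-fold, adjusted p = 0.00315), 2.19 above the median of all probes, and PABP1 IP by 1.32 ± 0.23 (2.49-fold, adjusted p = 0.00502), the latter turning to -0.31 on the spike-in scale. The difference between PABP1 IP and input was 0.49 ± 0.23 (adjusted p = 0.123); with slide as a block it was 0.67 and passed (adjusted p = 0.0238), as did the 3.06 on the spike-in scale.

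Myc itself was read by 3 probes that did not give the same picture. Probe 1, spotted 10 times on each array, read 0.221 and 0.200 in input, 0.428 and 0.350 in PABP1 IP, and 0.434 and 0.538 in GFP IP. Input lay below both IPs, and the IP arrays of the 2 groups were adjacent without overlap. GFP IP was higher than input by 1.20 ± 0.20 (2.30-fold, adjusted p = 0.00679), and PABP1 IP by 0.88 ± 0.20 (1.84-fold, adjusted p = 0.0160). These lie 1.58 and 0.75 above the median of all probes.

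The 10 spots of Myc probe 1 show how dim this probe was in input. Their median signal was 13.7 and 14.35 units in input, 44.55 and 52.55 in PABP1 IP, and 70.05 and 87.1 in GFP IP. On input 1 only 6 of the 10 spots were well above background, against all 10 on every other array. The log2 spread between spots was 0.308 and 0.326 (SD) in input and 0.0652 to 0.122 in the IPs, so input also carried the largest spot-to-spot error. These spots measure the array, not the replicate.

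With the normexp offset of 50 units, which is above the input signals of Myc probe 1, its difference from input was 0.009 (adjusted p = 0.967) for GFP IP and -0.06 for PABP1 IP. The call in PABP1 IP was also lost without input replicate 1 (adjusted p = 0.0639), without input replicate 2 (0.0956), without PABP1 IP replicate 1 (0.0657) and with no filter on dim probes (0.0700). Between GFP IP and PABP1 IP probe 1 differed by 0.32 ± 0.20 (adjusted p = 0.215), with a 95% interval from -0.19 to 0.83; it passed as higher with the median probe as reference (0.73, adjusted p = 0.0283) and as lower with the spike-ins (-1.31, adjusted p = 0.0445).

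**Figure D2:**
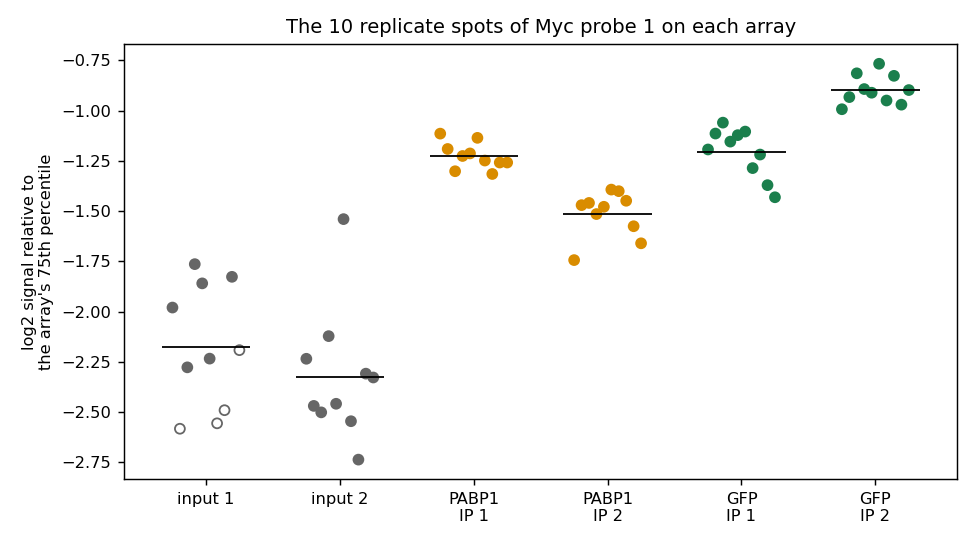
Log2 signal relative to the array's 75th percentile for the 10 replicate spots of Myc probe 1 on each of the 6 arrays; open points were not well above background and bars are means. The input spots are the lowest and most scattered (SD 0.308 and 0.326), and 4 of the 10 spots on input 1 are open.

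Myc probes 2 and 3 were not well above background in input. Probe 2 read 0.126 and 0.0494 in input, 0.173 and 0.197 in PABP1 IP, and 0.213 and 0.221 in GFP IP, with both IPs above input. GFP IP was at least 1.86-fold higher than input (1.46 ± 0.44, adjusted p = 0.0400, 1.84 above the median of all probes). This call was lost within slide 1 (adjusted p = 0.123), in a fit that blocks on the slide (0.0705), under normexp (-0.33), and without any 1 array except input replicate 1. Without input replicate 2 the difference was 0.78 (adjusted p = 0.0731), and without input replicate 1 it was 2.14. For PABP1 IP the difference was 1.23 ± 0.44 (adjusted p = 0.0643), which passed with the median probe as reference (1.41), with quantile normalization (1.42), with the spike-ins (3.80) and without input replicate 1 (1.90, adjusted p = 0.0127), and was 0.55 without input replicate 2. Between the IPs it was 0.23 ± 0.44 (adjusted p = 0.665), and -1.40 with the spike-ins, where it passed (adjusted p = 0.0314).

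Myc probe 3 behaved differently from the other 2. It read 0.0639 and 0.0513 in input, 0.157 and 0.129 in PABP1 IP, and 0.0477 and 0.0544 in GFP IP, and only the PABP1 IP arrays were well above background. The probe was thus tested only through the group where it was high, and the filter favoured PABP1 IP in its tests. PABP1 IP was at least 1.22-fold higher than input (1.31 ± 0.21, adjusted p = 0.00462), 1.19 above the median of all probes, but -0.39 under normexp. GFP IP was lower than PABP1 IP by -1.48 ± 0.21 (2.79-fold, adjusted p = 0.00245, 95% interval -2.01 to -0.96), -1.03 from the median of all probes. Here the fold is the fitted value and not a bound. Under normexp the difference between the IPs was -0.46 (adjusted p = 0.0757). GFP IP and input, both below background, differed by -0.17 ± 0.21 (adjusted p = 0.517), which passed as lower under normexp (-0.85, adjusted p = 0.00518). All 3 probes carry the same transcript accession in the files, and probe sequences or positions were not used here.

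Max, the shared partner through which all MYC and MXD proteins bind DNA, passed the test in no comparison on the 75th percentile scale. Its probe read 11.1 and 11.9 in input, 11.5 and 9.11 in PABP1 IP, and 7.91 and 10.2 in GFP IP. GFP IP lay below input without overlap, but by less than the 2 GFP IP arrays differed from each other. The differences were -0.35 ± 0.22 for GFP IP against input (adjusted p = 0.219, 95% interval -0.90 to 0.20), -0.16 ± 0.22 for PABP1 IP against input (adjusted p = 0.561, interval -0.71 to 0.39) and -0.19 ± 0.22 between the IPs (adjusted p = 0.479, interval -0.74 to 0.36). Relative to the median of all probes Max stood at 0.03, -0.29 and 0.27, and its sign changed with the median probe as reference in all 3 comparisons. With the spike-ins it passed in PABP1 IP against input (2.40, adjusted p = 0.000132) and between the IPs (-1.82, adjusted p = 0.00488).

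Of the MXD repressors, Mxi1 and Mxd4 were lower in GFP IP than in PABP1 IP, by 1 tested probe each. Mxi1 probe 1 read 2.06 and 2.03 in input, 5.50 and 4.52 in PABP1 IP, and 2.64 and 2.94 in GFP IP, so that the groups did not overlap and PABP1 IP was highest. PABP1 IP exceeded input by 1.28 ± 0.18 (2.44-fold, adjusted p = 0.00319), 1.16 above the median of all probes. GFP IP was lower than PABP1 IP by -0.84 ± 0.18 (adjusted p = 0.0106, -0.38 from the median of all probes), a call lost with the median probe as reference (-0.42, adjusted p = 0.153), without GFP IP replicate 1 (adjusted p = 0.0517) and with no filter (0.0595). Against input GFP IP differed by 0.45 ± 0.18 (adjusted p = 0.0868), and this passed with the median probe as reference (1.04), under normexp (0.67) and with slide as a block (0.56).

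Mxd4 probe 2 read 0.118 and 0.153 in input, 0.664 and 0.621 in PABP1 IP, and 0.164 and 0.174 in GFP IP. The PABP1 IP arrays were the only high ones, and input 1 was not well above background. PABP1 IP exceeded input by 2.26 ± 0.19 (4.78-fold, adjusted p = 0.00107) and GFP IP was lower than PABP1 IP by -1.93 ± 0.19 (3.80-fold, adjusted p = 0.000916), which are 2.13 above and -1.47 from the median of all probes. GFP IP and input differed by 0.33 ± 0.19 (adjusted p = 0.193). This passed as higher with the median probe as reference (0.93, adjusted p = 0.0379) and with quantile normalization (0.74, adjusted p = 0.0299), and as lower under normexp (-0.51, adjusted p = 0.0238).

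Mxd4 probe 1, which carries another transcript accession, read 0.222 and 0.274 in input, 0.273 and 0.584 in PABP1 IP, and 0.291 and 0.238 in GFP IP. Only PABP1 IP 2 stood apart, and no comparison passed: the differences were 0.70 ± 0.39 for PABP1 IP against input (adjusted p = 0.184), -0.60 ± 0.39 between the IPs (adjusted p = 0.220) and 0.09 ± 0.39 for GFP IP against input (adjusted p = 0.852). Without PABP1 IP replicate 1, the first became 1.24 (adjusted p = 0.0221) and the second -1.15 (adjusted p = 0.0234), and both passed with the spike-ins (3.26 and -2.23). The remaining probes of these genes were untested: Mxd4 probe 3 was above background on no array, and Mxi1 probe 2 only on PABP1 IP 2, reading 0.0918 there and 0.0421 to 0.103 on the other arrays.

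Mnt, a broadly expressed MAX-binding repressor, was lower in both IPs than in input. Its probe read 30.2 and 28.0 in input, 12.4 and 11.1 in PABP1 IP, and 16.8 and 15.6 in GFP IP, with no overlap between groups and input highest. PABP1 IP was lower than input by -1.31 ± 0.16 (2.48-fold, adjusted p = 0.00229), which is -1.44 from the median of all probes; on the spike-in scale the value was 1.25 and passed in the other direction (adjusted p = 0.0448). GFP IP was lower than input by -0.85 ± 0.16 (1.80-fold, adjusted p = 0.0102), -0.47 from the median of all probes.

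That second Mnt call was lost with the median probe as reference (-0.25, adjusted p = 0.469), under normexp (-0.25, adjusted p = 0.234), without input replicate 1 (0.0762) and without input replicate 2 (0.0543), and its value was 0.09 with the spike-ins. Between the IPs Mnt differed by 0.46 ± 0.16 (adjusted p = 0.0542). It passed with the median probe as reference (0.88, adjusted p = 0.0303), with quantile normalization (1.00, adjusted p = 0.00310), under normexp (0.60, adjusted p = 0.0153) and with slide as a block (adjusted p = 0.0376), and was -1.17 with the spike-ins.

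Mga, the large MAX partner with a T-box, was lower in PABP1 IP than in either other group by both tested probes. Probe 1 read 3.67 and 3.31 in input, 0.270 and 0.401 in PABP1 IP, and 1.78 and 1.99 in GFP IP. Probe 2 read 1.34 and 1.73 in input, 0.0418 and 0.195 in PABP1 IP, where the first array was not well above background, and 0.873 and 0.706 in GFP IP. On both probes input was highest, GFP IP lay below it and PABP1 IP far below both.

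PABP1 IP was lower than input by -3.40 ± 0.24 for Mga probe 1 (10.6-fold, adjusted p = 0.000903) and -4.07 ± 0.71 for probe 2 (adjusted p = 0.00639), or -3.53 and -4.20 from the median of all probes. The probe 2 value was -2.96 without PABP1 IP replicate 1 and -5.18 without PABP1 IP replicate 2. On the spike-in scale probe 1 stood at -0.84 and did not pass (adjusted p = 0.182). GFP IP exceeded PABP1 IP by 2.52 ± 0.24 (5.72-fold, adjusted p = 0.000815) and 3.12 ± 0.71 (adjusted p = 0.0131), the latter lost without GFP IP replicate 1 (adjusted p = 0.0547) and the former on the spike-in scale (0.88, adjusted p = 0.182). The probe 2 value was 2.01 without PABP1 IP replicate 1 and 4.23 without PABP1 IP replicate 2.

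Against input, GFP IP was lower by -0.89 ± 0.24 on Mga probe 1 (adjusted p = 0.0279) and differed by -0.95 ± 0.71 on probe 2 (adjusted p = 0.296), which are -0.51 and -0.57 from the median of all probes. The probe 2 difference passed under normexp (-0.63, adjusted p = 0.0100), on slide 1 alone (-1.11, adjusted p = 0.0300) and without either PABP1 IP array (adjusted p = 0.0266). The probe 1 call was lost with the median probe as reference (-0.29, adjusted p = 0.515), turned to 0.05 with the spike-ins, and was lost without input replicate 1 (0.134), input replicate 2 (0.0895), GFP IP replicate 1 (0.110) or GFP IP replicate 2 (0.0629). Mga probe 3, with another transcript accession, was above background on no array and was not tested.

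Mycbp encodes a small protein that binds the amino-terminal part of MYC. None of its 3 probes was well above background in input. Probe 1 read 0.0435 and 0.0539 in input, 0.687 and 0.815 in PABP1 IP, and 0.594 and 0.421 in GFP IP, with both IPs far above input. PABP1 IP was at least 6.41-fold higher than input (adjusted p = 0.000852) and GFP IP at least 4.28-fold (adjusted p = 0.00147; 0.42 and adjusted p = 0.0759 under normexp). The fitted differences lie 3.82 and 3.75 above the median of all probes.

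Mycbp probe 3 read 0.0613 and 0.0580 in input, 0.165 and 0.188 in PABP1 IP, and 0.127 and 0.105 in GFP IP. The order of the groups was that of probe 1, with less distance between them. PABP1 IP was at least 1.51-fold higher than input (1.56 ± 0.18, adjusted p = 0.00195; -0.20 under normexp). GFP IP against input passed in the fit (adjusted p = 0.0100), but the GFP IP signal did not exceed the lowest level called above background in input, so no fold is given. The call was lost without input replicate 1 (0.0584) or 2 (0.0645), and under normexp it passed as lower (adjusted p = 0.0372).

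Mycbp probe 2 was the noisiest. It read 0.0479 and 0.130 in input, 0.400 and 0.192 in PABP1 IP, and 0.0734 and 0.128 in GFP IP, where only the second array was above background. The probe was tested only through PABP1 IP, the group where it read highest. No comparison passed on the 75th percentile scale with all 6 arrays, no block and no normexp correction. PABP1 IP against input was 1.81 ± 0.62 (adjusted p = 0.0541, 1.69 above the median of all probes). It passed when the slide was blocked on (2.28, adjusted p = 0.0212), on slide 1 alone (2.34, adjusted p = 0.0493), with the median probe as reference (1.99), quantile normalization (2.10) or the spike-ins (4.38), and without input replicate 2 (2.53, adjusted p = 0.0352), and was 1.10 without input replicate 1. GFP IP against input was 0.30 ± 0.62 (adjusted p = 0.697), with 1.02 and -0.42 when input replicate 2 or 1 was left out and -0.70 under normexp, which passed as lower (adjusted p = 0.0145).

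Between the IPs, all 3 Mycbp probes read lower in GFP IP, by -0.58 ± 0.25 (adjusted p = 0.0884), -1.51 ± 0.62 (0.0803) and -0.61 ± 0.18 (0.0334). Under normexp the second passed (-0.55, adjusted p = 0.0496). In the main fit only the third passed. It did not pass with the median probe as reference (-0.19), with quantile normalization (-0.32), under normexp (-0.31), with no filter on dim probes (adjusted p = 0.140), on slide 1 alone (0.0619) or with any 1 of 5 arrays left out, GFP IP replicate 1 being the exception, whereas with slide as a block the first 2 passed (adjusted p = 0.0324 and 0.0424), as they did with the spike-ins (-2.21 and -3.14).

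**Figure D3:**
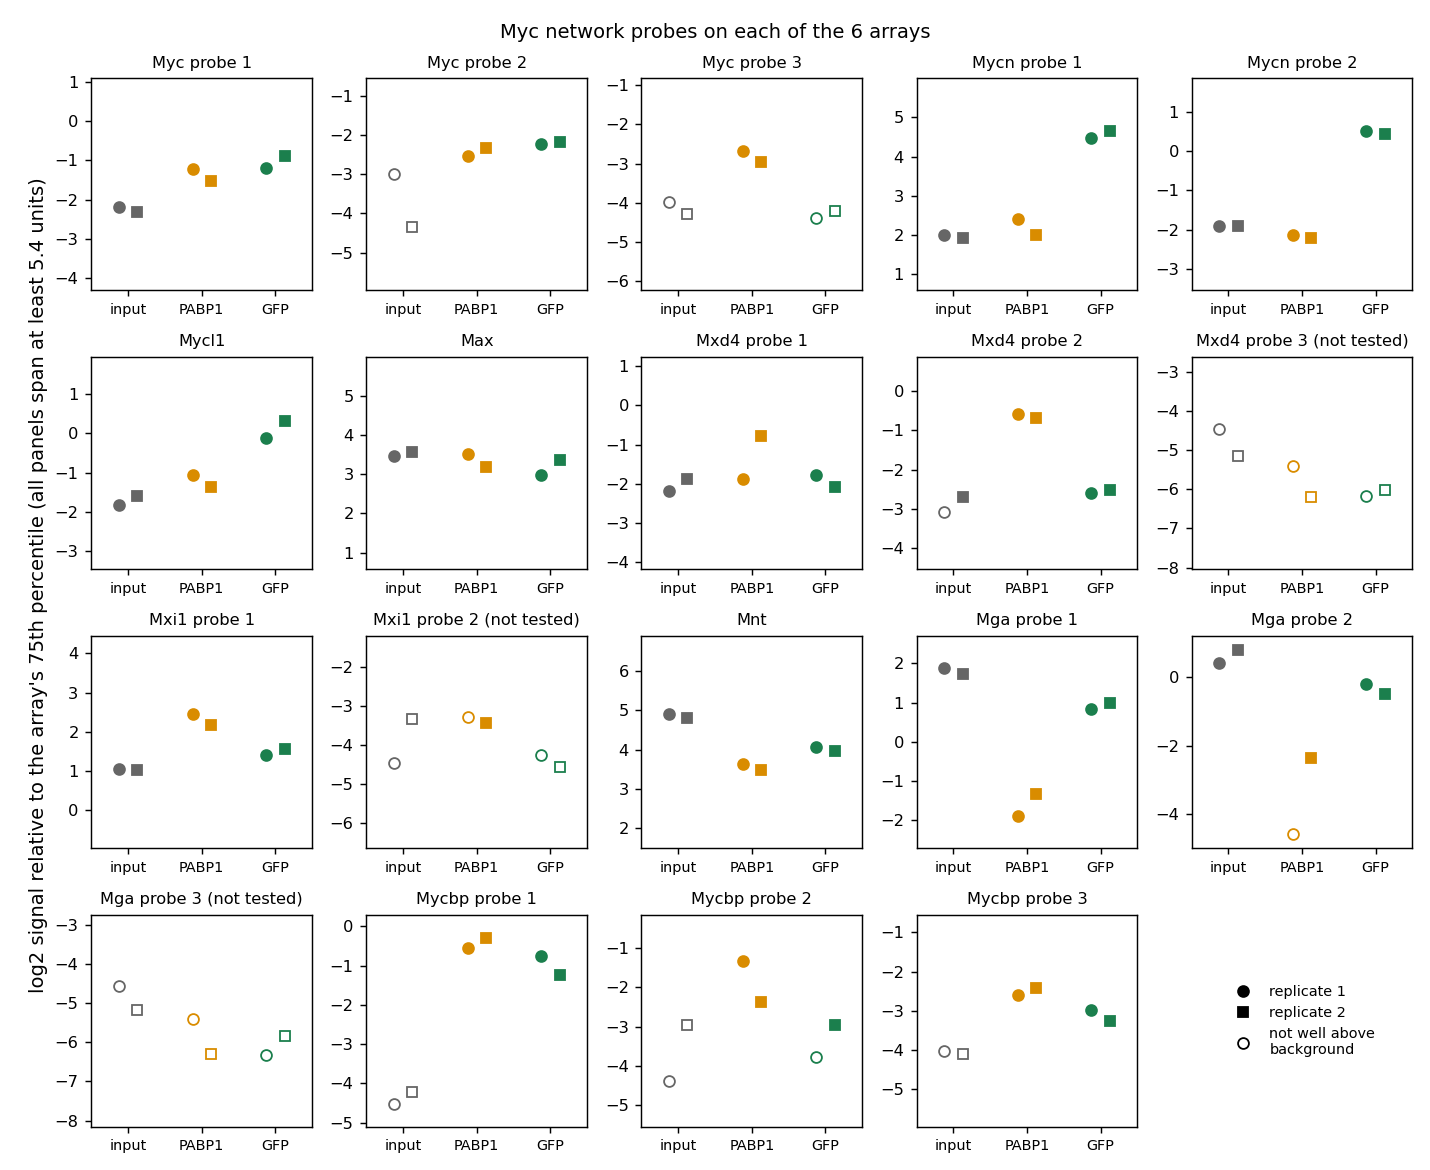
Log2 signal relative to the array's 75th percentile for all 19 probes of the 9 genes in the 2 input, 2 PABP1 IP and 2 GFP IP arrays; open symbols were not well above background, circles are replicate 1 and squares replicate 2. GFP IP is highest for Mycn and Mycl1, PABP1 IP is highest for Mxi1 probe 1 and Mxd4 probe 2 and lowest for Mga probes 1 and 2, and the Max arrays lie within 7.91 and 11.9 times the percentile.

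The authors' deposited table of group means, scaled to the median of each array, differs from the scanner values for some members. It lists chromosome 15 for Myc, 12 for Mycn and Max, 4 for Mycl1 and Mycbp, 5 for Mxd4, 19 for Mxi1, 11 for Mnt and 2 for Mga. For the bright Mycn row the authors' deposited table gives 28.0 in input, 25.6 in PABP1 IP and 129 in GFP IP, with GFP IP highest as on the arrays, and for Mycl1 1.21, 4.90 and 16.1, in the order of the arrays. For Mnt the authors' deposited table gives 174, 80.6 and 128, and for its Mxd4 row of the accession of probe 2 it gives 10.6, 41.1 and 15.7, again in the order seen here.

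For Mxi1 the authors' deposited table gives 38.4, 53.3 and 56.6, so that GFP IP is above PABP1 IP there and below it on the arrays. For Max the authors' deposited table gives 71.2, 47.3 and 58.9. Its GFP IP to input ratio is 0.827 there and 1.18 on the arrays at the same median scale, and its PABP1 IP to input ratio 0.665 and 1.01. For the dimmer Mycn row the authors' deposited table gives 4.09, 1.65 and 9.39, with a PABP1 IP to input ratio of 0.404 against 0.952 on the arrays. For Mycbp the authors' deposited table gives 8.94 in PABP1 IP and 18.0 in GFP IP in the row of the accession of probe 1. Of the 2 rows of the accession of probes 2 and 3, the authors' deposited table gives 10.4 and 5.91 in one and 1.87 and 3.71 in the other. GFP IP is thus above PABP1 IP in 2 of these 3 rows of the authors' deposited table, while all 3 probes read lower in GFP IP on the arrays.

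For Mga the order differs too. The authors' deposited table gives 6.75 in input, 9.67 in PABP1 IP and 35.0 in GFP IP in one row and 1.67, 3.62 and 13.1 in another of the same accession, so that input is lowest there and highest in the scanner files. For Myc it holds 12 rows whose GFP IP to input ratio has a median of 0.861 in the authors' deposited table (0.745 to 1.47), where Myc probe 1 gives 3.47 on the same median scale, while the PABP1 IP to input ratios are close at 2.02 and 2.09. Across 7578 accessions, which are not independent replicates, each mean of the authors' deposited table correlated best with its own group of scanner files, at 0.895 for input, 0.923 for PABP1 IP and 0.916 for GFP IP, below the 0.980 to 0.991 between replicate arrays. What separates the table from the files was not tested.

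Genes whose 6 levels most resembled those of the brighter Mycn probe were sought among 15578 probes well above background on all arrays, by root mean square distance of the centred log2 values. The nearest 5 were Klf10 (0.056), Gtf2e1 (0.077), Rmnd5a (0.129), Mboat7 (0.135) and Zfp410 (0.146). For Klf10 GFP IP against input was 2.52 and PABP1 IP against input 0.22. For Myc probe 1 the nearest were Ptma (0.066), Tcf3 (0.071), Med26 (0.078), Fbxl5 (0.086) and Ghitm (0.088).

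The genes around the network were read by the brightest kept probe of each gene. In these terms 17.8% of 14930 genes were higher and 36.6% lower in GFP IP than in input, 30.3% and 23.3% in PABP1 IP against input, and 21.5% and 41.9% in GFP IP against PABP1 IP. The median gene differed by -0.52, 0.14 and -0.62 in these comparisons. The splits that follow depended on the scale: with the spike-ins as reference no listed gene was called lower in either IP than in input.

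Among 10 other members of the MAX and MLX network and related E-box factors, 3 were higher and 1 lower in GFP IP than in input (median -0.12), 4 and 2 in PABP1 IP (0.40), and 3 and 4 in GFP IP against PABP1 IP (-0.82). Bmyc, a short Myc relative that lacks the DNA-binding part, was above input in both IPs and highest in PABP1 IP. It was 3.04 ± 0.18 above input in PABP1 IP (adjusted p = 0.000852) and 0.69 ± 0.18 in GFP IP (adjusted p = 0.0262). GFP IP against PABP1 IP was -2.35 ± 0.18 (adjusted p = 0.000586). Mxd1, another MXD repressor, was lower than input in PABP1 IP (-2.08 ± 0.32, adjusted p = 0.0044) and higher in GFP IP than in PABP1 IP (1.28 ± 0.32, adjusted p = 0.0190), the reverse of Mxi1 and Mxd4. Tfap4, an E-box factor, was at least 7.45-fold higher in GFP IP than in input (adjusted p = 0.0212), although its other probe gave 0.82. Mlxipl, a glucose-responsive MLX partner, was lower than input in both IPs, by -1.44 ± 0.36 (adjusted p = 0.0215) and -1.30 ± 0.36 (adjusted p = 0.0274).

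Of 20 tested MYC cofactors, 3 were higher and 12 lower in GFP IP than in input (median -0.87), and 2 and 13 in PABP1 IP (-1.14). Between the IPs 10 were higher and 6 lower in GFP IP (0.61). With the median probe as reference the first split was 7 and 4, and with the spike-ins the last was 2 and 8. Trrap, the scaffold of MYC-bound acetyltransferases, was lower in both IPs, at -2.22 ± 0.17 in GFP IP (adjusted p = 0.00152) and -3.63 ± 0.17 in PABP1 IP (adjusted p = 0.000852). Its other probes gave -0.57 and -2.26 in GFP IP and -2.43 and -2.57 in PABP1 IP. Supt5, an elongation factor, was also lower in both, at -2.21 ± 0.19 (adjusted p = 0.00176) and -1.64 ± 0.19 (adjusted p = 0.00192). Sp1 (-2.69 ± 0.18, adjusted p = 0.000856) and Mycbp2 (-2.55 ± 0.17, adjusted p = 0.000852), which encode a zinc finger factor and a large ubiquitin ligase, were lower in PABP1 IP. Mycbp2 was lower than input in GFP IP as well (-1.05 ± 0.17, adjusted p = 0.00569), while Sp1 did not pass there (0.33, adjusted p = 0.168). Pim1, a kinase that cooperates with MYC, was the highest of the list in GFP IP, at 3.30 ± 0.23 over input (adjusted p = 0.00147) and 3.19 ± 0.23 over PABP1 IP (adjusted p = 0.000555), with 1.28 and 1.92 by its other probe. Sp1 (3.02 ± 0.18, adjusted p = 0.00053) and Cdk9, a transcription elongation kinase (2.74 ± 0.25, adjusted p = 0.000774), were also higher in GFP IP than in PABP1 IP.

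The SIN3 and NCOR corepressors that MXD proteins and MNT bring to DNA did not move as a block. Of 18 genes, 3 were higher and 6 lower in GFP IP than in input (median -0.23), 7 and 5 in PABP1 IP (0.39), and 7 and 8 in GFP IP against PABP1 IP (-0.20). With the median probe as reference the first split was 3 and 0 and the last 7 and 3. Sap30 (3.22 ± 0.30, adjusted p = 0.00197), Rbbp4 (1.93 ± 0.16, adjusted p = 0.00164) and Hdac2 (at least 3.51-fold, adjusted p = 0.0075), all subunits of the SIN3 deacetylase complex, were higher in GFP IP than in input, although 1 of 3 other Rbbp4 probes gave -0.94. Arid4a was lower in PABP1 IP (-3.44 ± 0.22, adjusted p = 0.000852) and higher in GFP IP than in PABP1 IP (2.97 ± 0.22, adjusted p = 0.000573), with -0.90 and 2.09 by its other probe. Ncor1 gave -3.22 ± 0.20 in PABP1 IP against input by its brightest probe (adjusted p = 0.000852), and 2.30, -2.50 and -2.89 by the others.

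Among 11 partners of MGA in its Polycomb complex, 5 were higher and 0 lower in GFP IP than in input by limma at the adjusted threshold (median 0.39), 3 and 1 in PABP1 IP (0.23), and 5 and 1 in GFP IP against PABP1 IP (0.67), or 0 and 5 with the spike-ins. At an unadjusted p under 0.05 the count lower in GFP IP than in input was also 0, while normexp and slide as a block each called 1 lower. Tfdp1, the dimer partner of E2F6, was 3.58 ± 0.15 above input in GFP IP (adjusted p = 0.00147) and 2.08 ± 0.15 above PABP1 IP (adjusted p = 0.000548), with 3.31 and 2.14 by its other probe. Rnf2 and Rybp, a Polycomb ubiquitin ligase and its binding partner, exceeded input by 2.98 ± 0.17 (adjusted p = 0.00147) and 2.80 ± 0.17 (adjusted p = 0.00147). For these 2 genes the probes did not give the same order of the IPs: against PABP1 IP the brightest probes gave 2.63 and 2.57 and the others -0.37 and -1.04. Yaf2, a relative of Rybp, was higher than input in PABP1 IP (2.23 ± 0.23, adjusted p = 0.00139) and in GFP IP (1.74 ± 0.23, adjusted p = 0.00336). Between the IPs it did not pass (-0.49 ± 0.23, adjusted p = 0.110).

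Of 16 genes that control the turnover of MYC proteins, 7 were higher and 3 lower in GFP IP than in input (median 0.55), 7 and 5 in PABP1 IP (0.19), and 6 and 4 in GFP IP against PABP1 IP (-0.00). With the median probe as reference the first was 9 and 1 and the last 7 and 1. The deubiquitinase Usp37 was 2.61 ± 0.19 above input in GFP IP (adjusted p = 0.00147) and 3.77 ± 0.19 above PABP1 IP (adjusted p = 0.00053), while its 2 other probes gave -1.10 and 0.81 against input. Gsk3b, the kinase that marks MYC for degradation, was 1.91 ± 0.18 above input in GFP IP (adjusted p = 0.00192; other probe 1.94). Fbxw7, the ubiquitin ligase subunit that reads this mark, was lower in PABP1 IP (-1.74 ± 0.43, adjusted p = 0.0205) and higher in GFP IP than in PABP1 IP (2.28 ± 0.43, adjusted p = 0.00691). The deubiquitinase Usp36 was lower than input in both IPs, at -2.09 ± 0.20 in GFP IP (adjusted p = 0.00201) and -3.34 ± 0.20 in PABP1 IP (adjusted p = 0.000852). So was the ligase Huwe1, at -1.31 ± 0.21 (adjusted p = 0.00595) and -2.41 ± 0.21 (adjusted p = 0.00111), with -3.73 and -6.30 by its other probe.

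Among 29 genes known to be activated by MYC, 5 were higher and 13 lower in GFP IP than in input (median -0.59, near the -0.52 of all genes), 7 and 11 in PABP1 IP (-0.11), and 9 and 11 between the IPs (-0.54). With the median probe as reference these were 5 and 3, 8 and 8, and 10 and 7. Tfrc, the transferrin receptor, was 2.46 ± 0.19 above input in GFP IP (adjusted p = 0.00155), and Rrs1, a ribosome assembly factor, 2.02 ± 0.17 (adjusted p = 0.00169). Cdk4, a cell cycle kinase, was 2.26 ± 0.22 above input in PABP1 IP (adjusted p = 0.00132) and -2.06 ± 0.22 in GFP IP against PABP1 IP (adjusted p = 0.00112). Hk2, a hexokinase, went the other way, at -2.01 ± 0.15 in PABP1 IP against input (adjusted p = 0.000935) and 2.08 ± 0.15 in GFP IP against PABP1 IP (adjusted p = 0.000549). The nucleolar proteins Nop56 (-2.00 ± 0.54 in GFP IP, adjusted p = 0.0276) and Nolc1 (-2.68 ± 0.38 in PABP1 IP, adjusted p = 0.00339) were lower than in input. Their other probes gave -1.89 and -0.75.

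**Figure D4:**
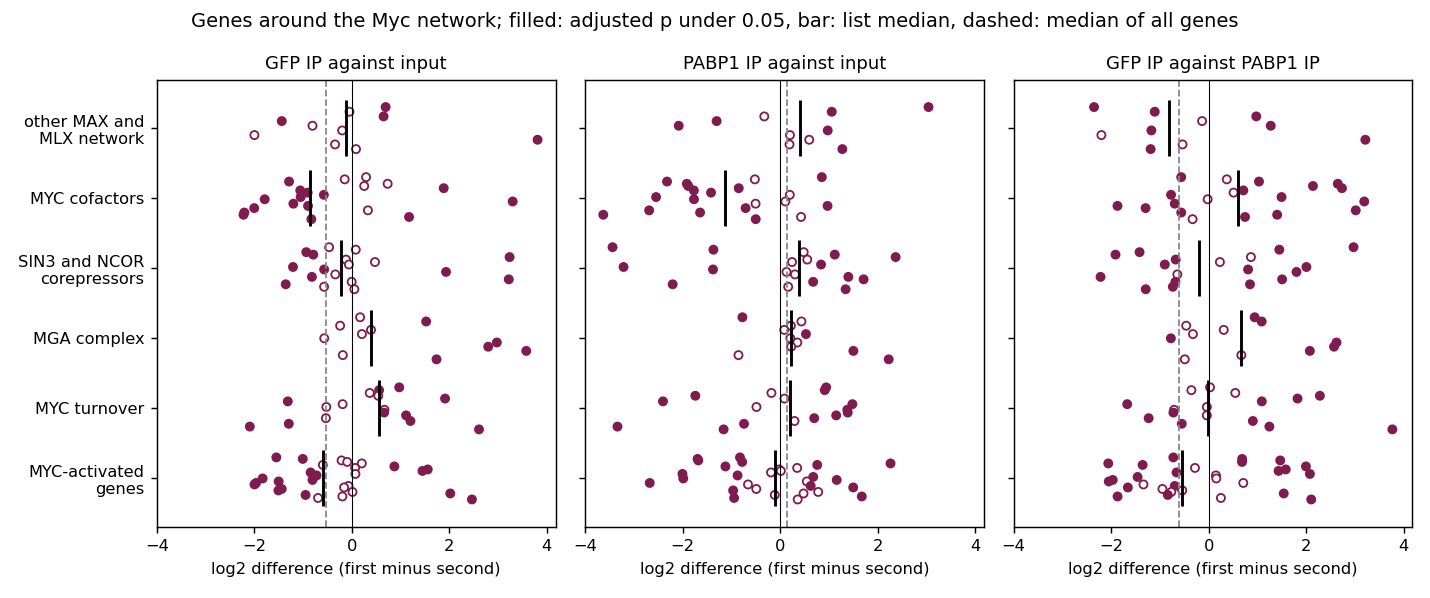
Log2 difference of each gene of the 6 lists around the Myc network, by its brightest probe, in the 3 comparisons (75th percentile scale); filled points have an adjusted p under 0.05, black bars are list medians and the dashed line is the median of all 14930 genes. The medians of the MGA complex, the MYC turnover genes and the SIN3 and NCOR corepressors lie above the dashed line in every panel. In PABP1 IP against input the first 2 lie close to it (0.23 and 0.19 against 0.14). The median of the MYC cofactors lies below it in both comparisons with input and above it in GFP IP against PABP1 IP.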

How the data were processed

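RNA from 6 samples was hybridised to one-colour whole-genome mouse arrays. The deposited files of each scan give spot intensity and, per the file headers, the processed signal from Feature Extraction 9.1.3.1 and flags for spots above background, saturated or outlying. The authors also deposited a table of group means of signal, with standard errors, which was compared and not tested. The members and lists were chosen with earlier results of these data known.

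Control spots and the 1 to 7 outlier spots per array were left out. The log2 signals of a probe's spots were averaged, and each array's 75th percentile was subtracted. A probe was kept if well above background (at least 0.5 of its spots) on both arrays of at least 1 group. A probe kept only through the group where it was high is favoured to show that group as higher. Each probe was fitted on all 6 arrays with limma 3.58.1 in R 4.3.3 (lmFit, eBayes, group the only factor, 3 residual degrees of freedom), two-sided, with Benjamini-Hochberg adjustment over 21060 probes and a threshold of 0.05. The number of arrays limits the precision. Where no array of the dimmer group was above background, "at least" folds use the higher of its signal and the lowest signal above background.

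All member probes are named. From each list up to 3 genes per comparison with the largest difference past the threshold are named, and the 5 genes most like Mycn and Myc. Gene names are those of the files; 22951 of 41174 probes also matched a RefSeq table (GRCm38.p6) by accession. The analysis was tested on simulated data. Alternatives were other scalings, background correction (normexp with an offset of 50), filter, probe choice, slide, replicate block and leaving out each array. Whether replicate numbers pair samples was checked by correlating the deviations of same-numbered arrays (GFP IP and input -0.02, PABP1 IP and input 0.15, the IPs -0.62). Same-numbered arrays of the IPs lay on different slides, so the last value cannot tell slide from replicate number. Pairing was not settled by this check, and the main fit assumed none.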

Additional observations from a re-analysis of the deposited data

How the results depend on the processing

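Counts of member probes past the threshold stayed within 1.5 times the main 9 in all comparisons, with these exceptions. Reading only the brightest probe of each of the 9 genes left 5 in PABP1 IP against input and 5 in GFP IP against PABP1 IP, with fewer probes tested. The spike-in scale gave 15 in PABP1 IP against input. Leaving out 1 array gave 5 to 9 calls in GFP IP against input, 9 to 9 in PABP1 IP against input and 7 to 9 between the IPs. Slide as a block gave 9, 11 and 12 calls, slide 1 alone 9, 10 and 8. The replicate number as a block gave 8, 9 and 8, with Myc probe 2 in GFP IP against input (adjusted p = 0.0671) and Mycbp probe 3 between the IPs (0.0627) among the calls lost. Crossing the numbers, chosen after seeing the data, gave 11 between the IPs. For the IP arrays this is the same grouping as the slides, so it is no separate check from slide as a block.

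Values that changed sign follow. Under normexp the offset of 50 units by itself shrinks the differences of dim probes. Beyond this, and unless an array was left out or the scale moved all probes together, the cause was not tested. With the median probe as reference, Max was 0.24 for GFP IP and 0.0157 for PABP1 IP against input and 0.23 between the IPs, and Myc probe 3 was 0.43 in GFP IP against input. With the spike-ins, GFP IP against input gave Max 0.59, Mga probe 1 0.0488, Mnt 0.0877 and Myc probe 3 0.77; PABP1 IP against input gave Max 2.40, Mnt 1.25 and Mycn probe 2 2.32; and between the IPs Mnt was -1.17, Myc probes 1 and 2 -1.31 and -1.40, and Mycl1 -0.31. Quantile normalization gave Max 0.26 between the IPs and Myc probe 3 0.47 in GFP IP against input.

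Under normexp, GFP IP against input gave Max 0.19, Mxd4 probes 1 and 2 -0.38 and -0.51, Myc probe 2 -0.33, and Mycbp probes 2 and 3 -0.70 and -0.52. PABP1 IP against input gave Max 0.21, Myc probes 1 to 3 -0.0562, -0.28 and -0.39, Mycbp probes 2 and 3 -0.16 and -0.20, and Mycl1 -0.0916. Myc probe 2 was -0.0547 between the IPs. With slide as a block Mxd4 probe 1 was -0.25 in GFP IP against input and Max 0.0137 in PABP1 IP against input; within slide 1 they were -0.0502 and 0.00523. In GFP IP against input Mxd4 probe 1 was -0.0570 without input replicate 1 and -0.0502 without GFP IP replicate 1, and Mycbp probe 2 was -0.42 without input replicate 1, -0.10 without GFP IP replicate 2 and at most 1.02 without another array. Max was 0.00523 in PABP1 IP against input without PABP1 IP replicate 2.

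List counts that moved by over 1.5 times were these. In GFP IP against input the MAX network had 4 calls, and 2 with no filter or with the replicate block, 0 without input replicate 1 or GFP IP replicate 1, and 1 without input replicate 2; the cofactors had 15, and 4 with the spike-ins and 8 without input replicate 1; the corepressors 9, and 3 with the median probe or the spike-ins and 5 without either input; the MGA complex 5, and 9 under normexp; the activated genes 18, and 8 with the median probe or without either input and 5 with the spike-ins. In PABP1 IP against input the MGA complex had 4, and 11 with the spike-ins and 2 with no filter, without input replicate 2 or without PABP1 IP replicate 1; turnover genes 12, and 7 without input replicate 1; activated genes 18, and 10 with no filter and 8 and 9 without input replicate 1 or 2. Between the IPs the cofactors had 16, and 10 with the spike-ins or no filter, and the corepressors 15, and 9 with no filter. Myc probes 2 and 3 and all Mycbp probes were not above background in input, which limits their differences from input to bounds.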
